A study of Mus musculus with 10 samples.

Results

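Respiratory complex III, complex IV and ATP synthase are built from subunits of the nuclear and of the mitochondrial genome, and the nuclear genes for them are described here. They were chosen by name and type, as protein-coding genes whose symbol begins with Uqcr, with Cox and a digit from 4 to 8, or with Atp5, together with Cyc1. The rule took 45 of the 54532 genes in the table, of which 9 belong to complex III, 18 to complex IV and 18 to ATP synthase. The study asked how dimethyl malonate (DMM), a prodrug of the succinate dehydrogenase inhibitor malonate, acts on the obstructed kidney. Bulk RNA sequencing was done on total RNA from kidneys of wild-type male C57BL/6 mice with unilateral ureteral obstruction (UUO), in which the ureter of one kidney is tied. Surgery was at 8 weeks of age and the kidneys were taken 14 days later. The control group of 5 mice received PBS and is labelled CTL, and the treated group of 5 mice received DMM at 40 mg/kg by intraperitoneal injection every other day. Kidneys in both groups were obstructed, and unobstructed kidneys are not analysed here, so each value compares DMM with PBS under obstruction.

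Complex III passes electrons from ubiquinol to cytochrome c, complex IV passes them on to oxygen, and both pump protons whose return through ATP synthase drives the making of ATP. Proximal tubule cells and cells of the thick ascending limb are rich in mitochondria, because they reabsorb solutes by active transport. Some complex IV subunits come in a widespread form and in a form of muscle, lung or testis, so the subunit genes also bear on which cells are in a sample.

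Depth was 16457495 to 18078777 counted reads in the PBS libraries and 15722527 to 19475833 in the DMM libraries. Several libraries stood apart before any comparison was made. DMM replicate 4 had the most reads, but only 20029 genes with a read against 22898 to 24083 in the other 9 libraries. The 45 genes took 0.318% of its reads (95% Wilson interval 0.316 to 0.321), against 0.491% to 0.820% in the other libraries. Reads of the mitochondrial chromosome took 5.62% of the same library (interval 5.61 to 5.63), which was the highest of the 10, against 1.97% to 4.39% elsewhere. PBS replicate 3 lay apart from the other PBS libraries, with 0.718% of reads on the 45 genes (interval 0.714 to 0.722) against 0.491% to 0.569%. DMM replicate 1 held 0.525% (interval 0.521 to 0.528), within the range of those 4 PBS libraries. The group means that the authors deposited give PBS replicate 3 and DMM replicate 1 a weight of 0, and no reason was found in the sources used here. Results are therefore given for all 10 libraries, for the 8 libraries with weight in those means, for 7 of these without DMM replicate 4, and for the 9 libraries without DMM replicate 4 alone.

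Of the 45 genes, 40 passed the filter on low counts and were tested, namely 9 of complex III, 14 of complex IV and 17 of ATP synthase. Cox6a2 had at most 6 reads in a library, Cox8b at most 2 and Cox7b2 at most 1. Cox8c and a second gene model of Atp5o (ENSMUSG00000116933) had 0 reads in every library, where a count of 0 allows up to 0.154 to 0.191 CPM (reads of a gene over all reads of its library, scaled to a common depth, with TMM factors in all values that follow). Whether the counting used the strand of the reads is not given in the sources used here, so the counts of 10 genes that overlap a gene on the opposite strand are uncertain. These are Uqcrc2, Uqcrb, Uqcrh, Cox4i1, Cox6a2, Cox6c, Atp5d, Atp5f1, Atp5j and the second model of Atp5o. How reads shared with processed pseudogenes were treated is not given either, and the 8 pseudogenes whose symbols follow the same pattern had at most 70 reads each over all libraries.

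The level of a complex in a library was taken as the mean over its tested genes of log2 CPM, relative to the mean of the 5 PBS libraries. For complex III the level in PBS replicates 1 to 5 was -0.04, -0.03, 0.38, -0.20 and -0.10, and in DMM replicates 1 to 5 it was -0.14, 0.34, 0.55, -0.94 and 0.61. For complex IV the PBS levels were -0.08, 0.01, 0.36, -0.10 and -0.19 and the DMM levels -0.08, 0.27, 0.52, -1.26 and 0.63. For ATP synthase they were 0.00, -0.02, 0.28, -0.18 and -0.09 with PBS and -0.12, 0.30, 0.45, -0.72 and 0.52 with DMM. The 3 complexes kept the same order of libraries at the ends, with DMM replicate 4 lowest and DMM replicate 5 highest. DMM replicates 3 and 5 lay above every PBS library for each complex, DMM replicate 1 lay among the lower PBS libraries, and the groups overlapped. Fewer cells of a type and less RNA per cell cannot be told apart in bulk tissue.

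**Figure D1:**
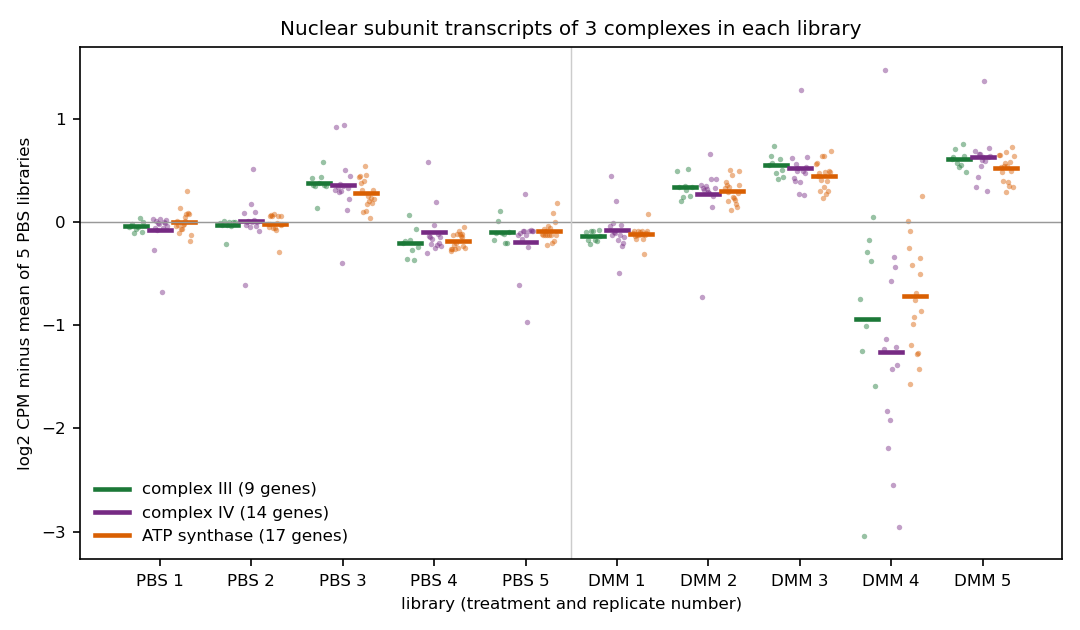
Log2 CPM of each tested gene of complex III (9 genes), complex IV (14) and ATP synthase (17) relative to the mean of the 5 PBS libraries, in each library, with points for genes and bars for the mean of a complex. The bars lie close together in 9 libraries and spread from -1.26 to -0.72 in DMM replicate 4.

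Within a library the levels of the 3 complexes lay close together in all but DMM replicate 4. Complex IV minus complex III was between -0.09 and 0.10 in the other 9 libraries and -0.33 in DMM replicate 4. Complex IV minus ATP synthase was between -0.10 and 0.11 in those 9 libraries and -0.54 in DMM replicate 4, and ATP synthase minus complex III was between -0.10 and 0.05 against 0.21. Between the groups ATP synthase minus complex III differed by 0.00 over all 10 libraries, -0.03 in the 8, -0.05 in the 9 and -0.10 in the 7 libraries, and the groups overlapped in all but the last set, where PBS had 0.01 to 0.05 and DMM -0.10 to -0.04. In the same order of sets the differences were -0.07, -0.10, -0.01 and -0.03 for complex IV minus complex III and -0.07, -0.08, 0.04 and 0.07 for complex IV minus ATP synthase, with groups that overlapped in every set. No test of these was made. Over all 10 libraries the mean level with DMM exceeded that with PBS by 0.08 for complex III (SD 0.22 and 0.64 in the PBS and the DMM group, n = 5 each), by 0.01 for complex IV (SD 0.21 and 0.77) and by 0.09 for ATP synthase (SD 0.17 and 0.52). Each of these differences is smaller than the spread between mice of a group. In the 8 libraries the differences were 0.23, 0.13 and 0.21 (SD of the DMM group 0.73, 0.88 and 0.58), and the groups overlapped. In the 9 libraries without DMM replicate 4 they were 0.34, 0.33 and 0.29, and in the 7 libraries 0.59, 0.56 and 0.50, where the lowest DMM level lay above the highest PBS level in all 3 complexes. Each library left out here had lowered this difference, since PBS replicate 3 was the highest PBS library for each complex and DMM replicates 1 and 4 were the lowest DMM libraries. These libraries were also described above by their share of reads on the same genes, so the separation in the 7 libraries depends on that choice.

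The test across all genes was edgeR's quasi-likelihood test, and calls needed a fold change of over 1.5 in either direction beside an adjusted p under 0.05. Over all 10 libraries edgeR called 0 of the 40 genes, and 0 of 16505 genes in all (0%). At an unadjusted p under 0.05 there was 1 of the 40, Atp5s, which was higher with DMM, beside 727 genes higher in all (4.4%). DESeq2 called 0 of the subunit genes and 50 genes in all. The groups did not overlap for 0 of the 40, beside 131 of all genes (0.794%) that were higher in every DMM library. The fitted log2 fold change was above 0 for 38 of the 40, beside 8715 of 16505 genes in all. Its median was 0.20 for complex III, 0.13 for complex IV and 0.12 for ATP synthase, beside 0.02 over all genes. The median of complex IV turned to -0.02 when DMM replicate 5 was left out, and stood at 0.34 without DMM replicate 4. Without DMM replicate 1 alone edgeR called 486 genes, 50 higher and 436 lower, with 0 of the 40 among them, and 2 of the 40 had an unadjusted p under 0.05, beside 8.48% of all genes that were higher.

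In the 8 libraries edgeR again called 0 of the 40 genes, beside 452 genes called higher among 16550 tested (2.73%). DESeq2 called 1 of 42 subunit genes, Atp5s, beside 749 genes called higher among 30116 (2.49%). At an unadjusted p under 0.05 there were 8 of the 40, all higher with DMM, namely Uqcrc2, Uqcrfs1, Uqcrh, Cox7a2, Atp5a1, Atp5b, Atp5c1 and Atp5s, beside 1794 genes higher in all (10.8%). The groups did not overlap for Uqcrh, Atp5a1 and Atp5s, which is 3 of 40 beside 9.45% of all genes. Medians were 0.39 for complex III, 0.27 for complex IV and 0.24 for ATP synthase, beside 0.02 over all genes. Leaving out DMM replicate 4 as well changed the counts. In the 7 libraries 16 of the 40 genes were called, all higher with DMM, beside 1129 genes called higher among 16828 (6.71%). These were 4 of complex III (Cyc1, Uqcr10, Uqcr11 and Uqcrfs1), 7 of complex IV (Cox4i1, Cox5b, Cox6a1, Cox7a1, Cox7a2, Cox7c and Cox8a) and 5 of ATP synthase (Atp5a1, Atp5b, Atp5g1, Atp5g3 and Atp5s). At an adjusted p under 0.05 with no bound on the fold there were 37 of 40, beside 14.3% of all genes that were higher, and the genes outside were Cox4i2, Cox6b2 and Atp5k. The groups did not overlap for 38 of 40, beside 18.9% of all genes, and the medians were 0.56, 0.56 and 0.49 beside -0.01 over all genes. With the 9 libraries, which keep both libraries of weight 0, edgeR called 0 of the 40 and 0 of 16707 genes in all. At an unadjusted p under 0.05 there were 12 of the 40, beside 7.35% of all genes that were higher. The counts thus rest on which of 3 libraries are used, and leaving out each of the 3 acts in the same direction. The p-values of a set measure only the spread between the mice kept in it. For complex III the SD of the level over all 10 libraries was 0.22 with PBS and 0.64 with DMM. In the 7 libraries it was 0.08 and 0.14, so the p-values there leave out part of the spread between mice.

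In complex III the catalytic subunits from the nuclear genome are cytochrome c1, made from Cyc1, and the Rieske iron-sulfur protein, made from Uqcrfs1 on chromosome 13. Uqcrfs1 had 111, 105, 161, 83.2 and 93.8 CPM in PBS replicates 1 to 5 and 95.4, 154, 165, 83.1 and 183 CPM in DMM replicates 1 to 5. DMM replicates 3 and 5 lay above every PBS library, DMM replicate 4 lay just under the lowest PBS library, and the groups overlapped. Its log2 fold change was the largest of complex III over all 10 libraries, at 0.30 (standard error 0.25, adjusted p 0.632 in edgeR). In the 8 libraries it was 0.57 (adjusted p 0.186), and in the 7 libraries it was called at 0.77 (adjusted p 0.00114), with all 3 DMM libraries above all 4 PBS libraries. For Cyc1 the fold change was 0.22 over all 10 libraries (edgeR adjusted p 0.715) and 0.66 in the 7 libraries (adjusted p 0.00031). The core subunits Uqcrc1 and Uqcrc2, which are related to a mitochondrial processing peptidase, kept closer to PBS in DMM replicate 4 than most, at -0.29 and -0.17 relative to the PBS mean.

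The small subunits of complex III surround this core, and they varied most in DMM replicate 4. Uqcr11, which encodes the smallest of these, had 46.0, 47.1, 59.6, 36.4 and 47.1 CPM in the PBS libraries and 40.3, 53.8, 69.3, 5.56 and 76.3 CPM in the DMM libraries. The value of 5.56 CPM rests on 92 reads, against 653 to 1255 reads in the other 9 libraries. Its fold change over all 10 libraries was the smallest of complex III, at 0.05 (edgeR adjusted p 0.970), and it turned to -0.03, -0.10 and -0.16 when PBS replicate 4, DMM replicate 3 or DMM replicate 5 was left out. In the 7 libraries it was 0.59 (adjusted p 0.00954) and the groups did not overlap. Uqcr10 had 44.4, 44.6, 58.8, 40.2 and 42.4 CPM with PBS and 40.6, 58.0, 71.4, 19.1 and 70.9 CPM with DMM. Again DMM replicates 3 and 5 were above every PBS library and DMM replicate 4 was below, with a fold change of 0.17 over all 10 libraries (edgeR adjusted p 0.826) and 0.64 in the 7 libraries (adjusted p 0.00103). Uqcrq, whose protein lies near the ubiquinone site, had 61.2, 61.3, 78.0, 51.7 and 57.0 CPM with PBS and 55.6, 77.6, 83.1, 20.3 and 85.8 CPM with DMM. Only DMM replicates 3 and 5 passed the highest PBS library, and the fold change in the 8 libraries was the smallest of complex III, at 0.21 (edgeR adjusted p 0.793). Over all 10 libraries it was 0.06, and -0.01, -0.05 and -0.06 without DMM replicate 2, 3 or 5. Uqcrh, which encodes the hinge protein that helps cytochrome c1 meet cytochrome c, was picked out after its values were seen. It had 72.6, 78.0, 100.2, 74.3 and 67.8 CPM with PBS and 73.5, 92.8, 110.1, 80.9 and 121.5 CPM with DMM, so that DMM replicate 4 lay among the PBS libraries. Its fold change was 0.28 over all 10 libraries (edgeR adjusted p 0.526) and 0.47 in the 8 libraries (adjusted p 0.0838), and its overlap with a pseudogene on the opposite strand leaves these counts uncertain.

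In complex IV the nuclear subunits surround a catalytic core that the mitochondrial genome encodes. Cox4i1, which encodes the widespread form of subunit 4 where ATP regulates the enzyme, had 306, 320, 372, 244 and 274 CPM with PBS and 291, 385, 460.2, 128 and 485 CPM with DMM. DMM replicates 2, 3 and 5 lay above every PBS library, DMM replicate 4 lay below every one, and the fold change was 0.20 (edgeR adjusted p 0.793). In the 7 libraries it was 0.63 (adjusted p 0.00333), and Cox4i1 overlaps Emc8 on the opposite strand. Cox6a1, the widespread form of subunit 6a, had 202, 215, 277, 185 and 200.1 CPM with PBS and 199, 272, 299.9, 46.7 and 337 CPM with DMM. Its fold change was 0.10 over all 10 libraries (edgeR adjusted p 0.929), with DMM replicate 4 lowest of the 10 and DMM replicate 5 highest, and 0.60 in the 7 libraries (adjusted p 0.00136). Without DMM replicate 3 or DMM replicate 5 it was -0.01 and -0.08. Cox8a, which encodes the widespread form of the small subunit 8, had 140.0, 135, 197, 123 and 135 CPM with PBS and 129, 193, 223, 18.5 and 224 CPM with DMM. PBS replicate 3 lay with DMM replicates 2, 3 and 5, and DMM replicate 4 held 306 reads against 2097 to 3934 in the others. The fold change of Cox8a was 0.11 over all 10 libraries (edgeR adjusted p 0.935) and 0.68 in the 7 libraries (adjusted p 0.000458), and it was -0.05 without DMM replicate 3 and without DMM replicate 5.

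Cox7a2l encodes a factor known for joining complexes III and IV into supercomplexes, which was not examined in these mice. It had 129.9, 139, 141, 119.7 and 122 CPM with PBS and 127, 144, 156, 95.9 and 160.1 CPM with DMM. Among the tested genes of complex IV it had the smallest fold change over all 10 libraries, at 0.07 (edgeR adjusted p 0.855), which became 0.00 when libraries were scaled by their size alone. In the 7 libraries it was 0.26 (adjusted p 0.0223), below the fold threshold, although all 3 DMM libraries lay above all 4 PBS libraries. DMM replicate 4 stood at -0.44 relative to the PBS mean, against a mean of -1.56 over the 10 widespread subunits of complex IV.

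The tissue forms of complex IV subunits were at low levels. Cox4i2, the form of subunit 4 known from lung, had 0.477, 0.353, 1.24, 0.958 and 0.353 CPM with PBS and 0.864, 0.315, 0.850, 1.87 and 0.790 CPM with DMM, from 5 to 31 reads. DMM replicate 4 was the highest library and the groups overlapped, with a fold change of 0.47 over all 10 libraries (edgeR adjusted p 0.713) that was 0.06 without DMM replicate 4. Cox7a1, the form of subunit 7a of heart and skeletal muscle, had 0.530, 1.35, 1.86, 1.06 and 0.412 CPM with PBS and 0.617, 1.51, 2.38, 0.0604 and 2.55 CPM with DMM. That is 1 read in DMM replicate 4 and 7 to 42 reads elsewhere. The fold change of Cox7a1 was 0.45 over all 10 libraries (edgeR adjusted p 0.801), 0.95 in the 8 libraries (adjusted p 0.518) and 1.35 in the 7 libraries (adjusted p 0.0374). Leaving out single libraries gave 0.14 (without DMM replicate 5) to 0.76 (without PBS replicate 3 or DMM replicate 4). Cox6b2, the testis form of subunit 6b, had 4.93, 5.65, 3.77, 4.89 and 6.06 CPM with PBS and 5.74, 6.11, 6.06, 3.32 and 7.66 CPM with DMM. Here PBS replicate 3 was the lowest PBS library, unlike for the widespread subunits, and the fold change was 0.19 over all 10 libraries (edgeR adjusted p 0.738) and 0.10 in the 8 libraries (adjusted p 0.851). Of the muscle forms Cox6a2 and Cox8b, the first had 0 to 6 reads in a library and the second had 2 reads in PBS replicate 4 and 0 elsewhere. The 10 marker genes of striated muscle summed to at most 3.34 CPM in a library, with Myh2 and Myh4 at 0, and 6 markers of male germ cells summed to at most 1.51 CPM, with Prm2 and Ldhc at 0.

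Ratios of the tissue form to the widespread form were compared by an exact two-sided permutation test over libraries, for which the smallest possible p over all 10 libraries is 0.00794. Cox4i2 over Cox4i1 had a log2 ratio of -9.01, -9.41, -8.10, -7.83 and -9.19 with PBS and -8.22, -9.80, -8.90, -6.01 and -9.06 with DMM. The difference was 0.31 (exact permutation p 0.730, adjusted over the tested ratios 0.897), and it was -0.28 (p 0.548) without DMM replicate 4, which had the highest ratio. Cox7a2, the widespread form of subunit 7a, had 70.0, 74.3, 104, 62.7 and 62.1 CPM with PBS and 67.03, 98.0, 103, 57.8 and 110.1 CPM with DMM, with a fold change of 0.22 (edgeR adjusted p 0.671), and 0.62 in the 7 libraries (adjusted p 0.000895). Cox7a1 over Cox7a2 had a log2 ratio of -6.76, -5.66, -5.72, -5.73 and -6.88 with PBS and -6.52, -5.91, -5.37, -8.36 and -5.37 with DMM. The groups overlapped and differed by -0.15 (exact permutation p 0.897, adjusted 0.897), with DMM replicate 4 lowest, and by 0.36 (p 0.341) without it. In the 7 libraries the differences were -0.39 (exact permutation p 0.514) for Cox4i2 over Cox4i1 and 0.71 (p 0.171) for Cox7a1 over Cox7a2. The ratios of Cox6a2 to Cox6a1 and of Cox8b to Cox8a were not tested, since the tissue form did not pass the filter.

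In ATP synthase the F1 part makes ATP on its beta subunits, encoded by Atp5b, beside the alpha subunits of Atp5a1 and around the gamma shaft of Atp5c1. Atp5b had 1112, 1069, 1514, 914 and 1011 CPM with PBS and 1043, 1452, 1643, 932 and 1732 CPM with DMM. Only DMM replicates 3 and 5 lay above every PBS library, and the fold change was 0.28 over all 10 libraries (edgeR adjusted p 0.595), 0.49 in the 8 libraries (adjusted p 0.187) and 0.65 in the 7 libraries (adjusted p 0.00133). Atp5a1 had 857, 871, 1193, 738 and 810.2 CPM with PBS and 819, 1109, 1296, 888 and 1387 CPM with DMM. In DMM replicate 4 it stood at 0.01 relative to the PBS mean, so that in the 8 libraries every DMM value lay above every PBS value, with a fold change of 0.51 (edgeR adjusted p 0.0921), beside 0.30 over all 10 libraries (adjusted p 0.544). Atp5c1 had 176, 178, 236, 151 and 172 CPM with PBS and 163, 232, 247, 169.6 and 260.4 CPM with DMM. The fold change of Atp5c1 was 0.23 over all 10 libraries (edgeR adjusted p 0.586) and 0.54 in the 7 libraries (adjusted p 0.00123), and DMM replicate 4 lay among the PBS libraries.

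Subunit c forms the rotating ring in the membrane, and Atp5g1, Atp5g2 and Atp5g3 encode the same mature protein behind different import sequences. Atp5g2 had 87.8, 95, 97.3, 82.6 and 87.5 CPM with PBS and 84.0, 97.5, 105.7, 47.4 and 109.7 CPM with DMM. Apart from DMM replicate 4 its libraries lay close together, and its fold change of -0.02 over all 10 libraries (edgeR adjusted p 0.975) was the lowest of ATP synthase, with 0.24 in the 7 libraries (adjusted p 0.0272). Leaving out single libraries gave -0.11 to 0.14, with values above 0 without PBS replicate 2, PBS replicate 3 or DMM replicate 4. Atp5g1 and Atp5g3 had larger fold changes in the 7 libraries, of 0.71 each (edgeR adjusted p 0.000178 and 0.000464), and 0.20 and 0.25 over all 10 libraries (adjusted p 0.782 and 0.699). Among the 4 tested genes of the stalk that holds F1 still (Atp5f1, Atp5h, Atp5j and Atp5o), the median fold change was 0.12 over all 10 libraries and 0.45 in the 7 libraries. The 4 small genes of the membrane part (Atp5j2, Atp5k, Atp5l and Atp5mpl) had medians of 0.06 and 0.38.

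Atp5s encodes coupling factor B, which is not among the core subunits. It had 6.57, 7.06, 8.38, 6.01 and 8.12 CPM with PBS and 7.59, 10.2, 11.6, 8.58 and 11.3 CPM with DMM, from 113 to 205 reads. DMM replicate 1 alone lay among the PBS libraries, and DMM replicate 4 lay just above the highest of them, at 0.25 relative to the PBS mean. Its fold change was the largest of ATP synthase over all 10 libraries, at 0.44 (standard error 0.16, unadjusted p 0.0203, edgeR adjusted p 0.394), with 4 of 5 DMM libraries above every PBS library. In the 8 libraries it was 0.58 (edgeR adjusted p 0.0764) with groups that did not overlap, and in the 7 libraries 0.67 (adjusted p 0.00733).

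Levels were compared between genes per length. In deposited FPKM, which divides by a length of the whole gene model, the highest PBS means of complex III were those of Uqcrfs1 (80.6, SD 21.7, n = 5), Uqcr10 (78.3, SD 12.4) and Uqcr11 (73.2, SD 12.7), which do not differ beyond their spread. In complex IV they were those of Cox6a1 (305 FPKM, SD 49.96), Cox8a (266, SD 52.5) and Cox4i1 (194, SD 30.6), and in ATP synthase those of Atp5a1 (283, SD 54.96), Atp5b (263, SD 53.5) and Atp5c1 (94.9, SD 16.3). Per kilobase of the main annotated transcript Uqcrh had the highest mean of complex III at 144 CPM per kilobase (SD 23.1), next to Uqcrc1 at 110 (SD 17.96). In complex IV Cox4i1 at 397 (SD 63.1) and Cox6a1 at 378 (SD 62.4) do not differ beyond their spread, and Atp5b was highest in ATP synthase at 587 (SD 120.2). Atp5l, a subunit of the membrane part, was 16th of 17 in FPKM and 10th per kilobase of transcript, with a deposited gene length of 6443 and a main transcript of 544 bases.

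Most of the 40 tested genes have short transcripts, and DMM replicate 4 varied with transcript length and base composition over all genes. The main transcript had 371 to 4715 bases, under 1000 in 26 of the 40, with a median of 735.5 against 2831 over all tested genes, and a median GC content of 50.8% against 50.1%. In DMM replicate 4 the 40 genes had a median of -0.96 relative to the PBS mean, with an SD of 0.87, and 33 of 40 lay below every PBS library, beside 41.3% of all tested genes. All tested genes spread widely in this library too, with an SD of 1.09 against 0.23 to 0.61 in the other 9 libraries. Relative to the other DMM libraries, all genes with a main transcript of 500 to 1000 bases had a median of -0.78 in DMM replicate 4, and those over 4000 bases a median of 0.53. Genes with a GC content under 40% had a median of 0.80 in the same library and those over 55% a median of -0.71. The 21 subunit genes of 500 to 1000 bases were at a median of -1.38. Across the 40 genes, which are not independent replicates, Spearman's rho of the deviation in DMM replicate 4 was 0.40 with transcript length and -0.29 with GC content, beside 0.47 and -0.51 across 16491 genes. The trends in the other DMM libraries had the opposite sign, in part because each library is set against the rest of its group, with rho for length of -0.30, -0.22, -0.35 and -0.51 over the 40 genes in DMM replicates 1, 2, 3 and 5. Over all genes these were -0.13, -0.35, -0.36 and -0.37. The part of length, base composition or this library in the differences between complexes was not tested.

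By role, the lowest mean levels in DMM replicate 4 were those of the 10 widespread subunits of complex IV (-1.56) and the 5 small subunits of complex III (-1.37). The catalytic and core subunits of complex III stood at -0.56 and -0.23, and the F1 part of ATP synthase at -0.62. Single genes ranged from -3.04 for Uqcr11 and -2.95 for Cox8a to 0.25 for Atp5s and 1.47 for Cox4i2. In DMM replicate 5, by contrast, the 40 genes had an SD of 0.18 around a median of 0.59, and 39 of 40 lay above every PBS library, beside 26.5% of all tested genes. The same count was 37 in DMM replicate 3 (26.6% of all genes), 15 in DMM replicate 2 (19.5%) and 0 in DMM replicate 1 (13.7%).

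**Figure D2:**
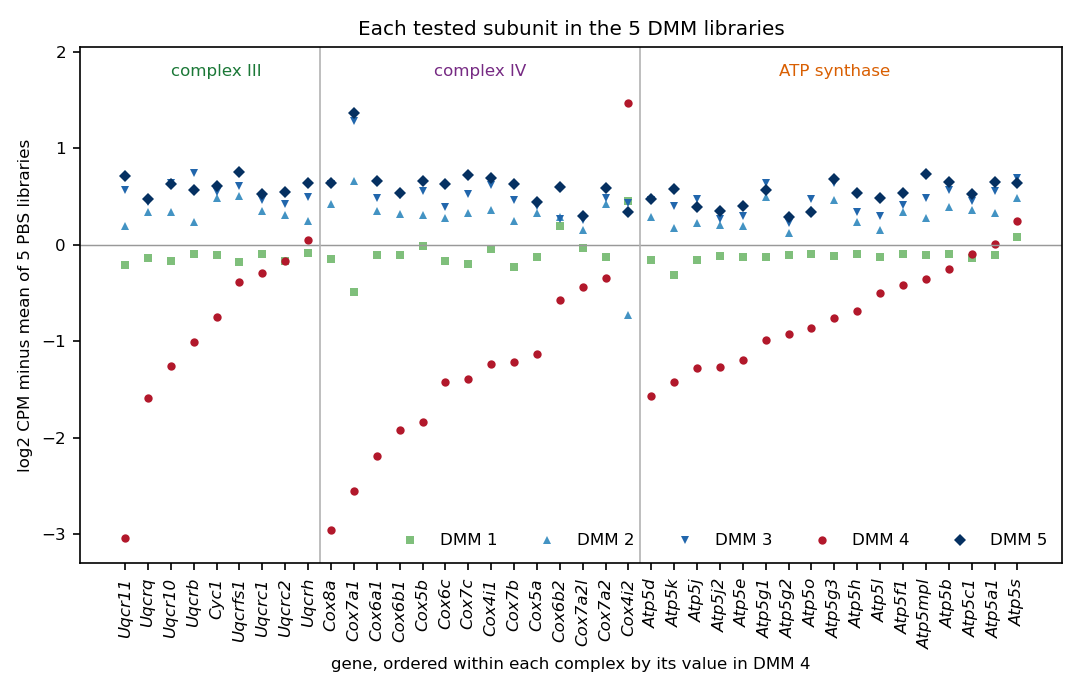
Log2 CPM of each tested gene in DMM replicates 1 to 5, relative to the mean of the 5 PBS libraries, with genes ordered within each complex by their value in DMM replicate 4. DMM replicate 4 runs from -3.04 to 1.47, while DMM replicates 3 and 5 lie between 0.23 and 1.37.

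The mitochondrial genome encodes 6 further subunits of these complexes, and 5 of them were tested. Nuclear copies of mitochondrial sequence exist, and how reads shared with them were counted is not given, so levels between these genes are not compared. For mt-Cytb, which encodes the cytochrome b of complex III, the PBS libraries had 3103, 3664, 5997, 2890 and 2874 CPM and the DMM libraries 3600, 6094, 6597, 6979 and 7381 CPM. DMM replicate 4 was among the highest here, unlike for the nuclear genes, and DMM replicate 1 lay among the PBS libraries. The fold change of mt-Cytb was 0.73 over all 10 libraries (edgeR adjusted p 0.387), and it rose in the 8 libraries by 1.11 (adjusted p 0.00319), with 4 of 4 DMM libraries above every PBS library. For mt-Co1, the subunit of complex IV that binds oxygen, the PBS libraries had 8688, 9537, 14724, 8152 and 8203 CPM and the DMM libraries 9396, 14733, 15817, 16589 and 17325 CPM. Here too PBS replicate 3 and DMM replicate 1 lay with the other group, with a fold change of 0.58 over all 10 libraries (edgeR adjusted p 0.408) and 0.90 in the 8 libraries (adjusted p 0.00757). For mt-Co2 and mt-Co3, the other core subunits of complex IV, the fold changes in the 8 libraries were 1.62 and 1.26 (edgeR adjusted p 0.0261 and 0.0227), and for mt-Atp6 of ATP synthase 1.55 (adjusted p 0.00519). Over all 10 libraries these 3 had fold changes of 0.99, 0.93 and 0.78 (edgeR adjusted p 0.480, 0.385 and 0.526). Their PBS means were 65.0, 55.5 and 56.9 CPM (SD 38.0, 19.5 and 41.5), far fewer reads than for mt-Cytb and mt-Co1. What part of their transcripts was counted is not known, so their fold changes may not measure the whole transcripts. The sixth gene, mt-Atp8, had at most 18 reads in a library. The edgeR test thus called 5 of 5 in the 8 libraries (beside 2.73% of all genes higher) and in the 7 libraries (6.71%). It called 0 of 5 over all 10 libraries and in the 9 libraries, where 3 of 5 had an unadjusted p under 0.05 in both (beside 4.4% and 7.35% of all genes). Without DMM replicate 1 alone mt-Co3 was called, at 1.11 (edgeR adjusted p 0.0499). Their mean level in DMM replicate 4 was 0.97, against -0.94, -1.26 and -0.72 for the nuclear subunits of the 3 complexes. The 5 tested mitochondrial genes have a GC content of 36.0% to 39.9%. All genes under 40% had a median of 0.80 in this library relative to the other DMM libraries. The part of base composition in this contrast was not tested.

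Assembly factors and the other complexes were read from fixed lists. Listed were 6 assembly factors of complex III, 22 tested factors of complex IV and 5 assembly factors and inhibitors of ATP synthase. Their median fold changes over all 10 libraries were 0.15, -0.06 and 0.07. There edgeR called 0 of the 33, and 1 (Ttc19) had an unadjusted p under 0.05, beside 4.4% of all genes higher. In the 7 libraries it called Coa6 of complex IV and Fmc1 of ATP synthase higher, which is 2 of 33 beside 6.71% of all genes, and the medians were 0.21, 0.16 and 0.36. Ttc19, which clears fragments of the Rieske protein from complex III, had 25.3, 29.6, 27.4, 29.9 and 30.4 CPM with PBS and 34.6, 32.2, 34.2, 46.3 and 30.5 CPM with DMM, with a fold change of 0.32 (unadjusted p 0.0278, edgeR adjusted p 0.414). All 5 DMM libraries lay above all 5 PBS libraries, as for 0.794% of all genes. The gap was within counting error, from 30.41 CPM (517 reads) in PBS replicate 5 to 30.45 CPM (501 reads) in DMM replicate 5. The highest library was DMM replicate 4. Without it the fold change was 0.21 in the 9 libraries (edgeR adjusted p 0.26) and 0.17 in the 7 libraries (adjusted p 0.185). For Sco1, a copper carrier for complex IV, the fold change was -0.29 (edgeR adjusted p 0.490), and for Atpaf2, an assembly factor of F1, it was -0.20 (adjusted p 0.556). Without DMM replicate 4 these were -0.19 and -0.12, and in the 7 libraries -0.21 and -0.02. Cycs, the cytochrome c that links complexes III and IV, had a fold change of 0.01 (edgeR adjusted p 0.990) and of 0.30 in the 7 libraries (adjusted p 0.0115). Its sign was not stable, with -0.05 to 0.12 when single PBS libraries and -0.04 to 0.10 when single DMM libraries were left out.

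The 4 genes of complex II, the target of malonate, had a median fold change of 0.20 over all 10 libraries, 0.38 in the 8 and 0.57 in the 7 libraries. Over all 10 libraries edgeR called 0 of them, and 0 in the 8 (beside 2.73% of all genes higher). At an unadjusted p under 0.05 there were 0 and 2, beside 4.4% and 10.8% of all genes higher. In the 7 libraries 2 genes of complex II, Sdha and Sdhb, were called (beside 6.71%). Sdhb, its iron-sulfur subunit, had 110.2, 109.8, 159, 89.2 and 97.7 CPM with PBS and 95.9, 143, 157, 131 and 179 CPM with DMM, with a fold change of 0.32 (edgeR adjusted p 0.537) and of 0.58 in the 8 libraries (adjusted p 0.0331). DMM replicate 4 lay above 4 of the 5 PBS libraries for Sdhb. Of 46 nuclear genes named after complex I, edgeR called 0 over all 10 libraries (1 higher before adjustment, at a p under 0.05, beside 4.4% of all genes), 1 higher in the 8 (beside 2.73%) and 7 higher in the 7 libraries (beside 6.71%), with medians of 0.09, 0.25 and 0.44. Among these, Ndufaf4, an assembly factor, had the smallest p over all 10 libraries, with a fold change of 0.46 (unadjusted p 0.0274, edgeR adjusted p 0.413), which was 0.27 without DMM replicate 4 (adjusted p 0.272). The level of the complex I list in DMM replicate 4 was -0.65, and that of complex II was -0.52. A further 94 tested genes have names that begin like cytosolic ribosomal proteins, which also takes in a few kinase genes. For these edgeR called 0 over all 10 libraries (0% of all genes) and 0 in the 7 libraries (beside 6.71% higher and 7.61% lower). Their medians were -0.07 and 0.04. At an unadjusted p under 0.05, 1 was lower with 10 libraries, beside 6.49% of all genes. With 7 libraries 6 were higher and 5 lower, beside 19.5% and 19.9% of all genes. Among 11 regulators of respiratory genes, Ppargc1a, a coactivator of mitochondrial biogenesis, had 50.2, 36.3, 63.5, 30.6 and 41.0 CPM with PBS and 40.9, 58.1, 73.3, 134.5 and 70.5 CPM with DMM. DMM replicate 4 was highest and DMM replicates 1 and 2 lay within the range of the PBS libraries. Its fold change was 0.77 over all 10 libraries (unadjusted p 0.0262, edgeR adjusted p 0.409), 1.09 in the 8 libraries (adjusted p 0.0450) and 0.77 in the 7 libraries (adjusted p 0.00609). In the 9 libraries without DMM replicate 4 it was 0.45 (unadjusted p 0.0755, edgeR adjusted p 0.325). In the 8 libraries Lrpprc was called as well, so 2 of the 11 were called higher (beside 2.73% of all genes). The 7 libraries had 1 of the 11 called (beside 6.71%), with Lrpprc at 0.54, below the fold threshold. At an unadjusted p under 0.05, 2 were higher and 0 lower over all 10 libraries (beside 4.4% and 6.49% of all genes). These counts were 3 and 1 in the 8 libraries (beside 10.8% each) and 4 and 1 in the 7 (beside 19.5% and 19.9%). In the 9 libraries edgeR called 0 genes in all, and so 0 of each of these lists and of the cell type lists that follow. In the same set 0 of 15 proximal tubule markers, 5 of 9 distal nephron markers, 6 of the 46 complex I genes and 0 of the 4 of complex II were higher at an unadjusted p under 0.05, beside 7.35% of all genes. Lower at that p were 6 of 9 macrophage, 6 of 8 T cell and 1 of 9 fibroblast markers, beside 9.65% of all genes. DESeq2 called 0 genes of each list over all 10 libraries. In the 8 libraries DESeq2 called 12 proximal tubule and 5 distal nephron markers higher and 6 macrophage, 5 T cell and 4 fibroblast markers lower, beside 2.49% of all genes higher and 3.02% lower. It also called 5 mitochondrially encoded subunits, 2 regulators and 2 complex I genes higher there.

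Markers of cell types were set beside the subunit genes. The summed level of 15 proximal tubule markers was 5099, 5082, 12808, 2035 and 3902 CPM with PBS and 3819, 10298, 9158, 7120 and 12985 CPM with DMM, and the most abundant of them was Kap at a mean of 2270 CPM. PBS replicate 3 and DMM replicates 2, 3 and 5 were highest for these markers and for all 3 complexes, whereas DMM replicate 4 lay above 4 of the 5 PBS libraries for the markers and lowest of all libraries for the complexes. In edgeR 0 of the 15 were called over all 10 libraries (2 before adjustment, at a p under 0.05, beside 4.4% of all genes higher). There were 6 called in the 8 libraries (beside 2.73%) and 14 in the 7 libraries (beside 6.71%), all higher. The 10 markers of the distal nephron, from the thick ascending limb (such as Umod) to the collecting duct (Aqp2, Aqp3, Slc4a1 and Atp6v1g3), summed to 3129, 2616, 4355, 1980 and 1722 CPM with PBS and 2721, 4208, 4888, 1931 and 5242 CPM with DMM, with Umod at a mean of 2399 CPM. Of the 9 tested, edgeR called 0 over all 10 libraries (1 before adjustment, at a p under 0.05, beside 4.4% of all genes higher). It called 4 in the 8 libraries (beside 2.73%) and 8 in the 7 libraries (beside 6.71%), all higher.

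Immune and fibroblast markers were lower with DMM in some sets of libraries. Among all genes edgeR called 590 lower in the 8 libraries (3.56%) and 1281 in the 7 libraries (7.61%), and over all 10 libraries 1071 (6.49%) were lower at an unadjusted p under 0.05. The 9 macrophage markers, with Lyz2 most abundant at 584 CPM, summed to 2325, 2424, 1862, 2144 and 2546 CPM with PBS and 2223, 1570, 1281, 1002 and 1301 CPM with DMM. DMM replicates 2 to 5 lay below every PBS library, and edgeR called 0 of 9 over all 10 libraries (6 before adjustment, at a p under 0.05), 2 in the 8 libraries and 6 in the 7 libraries, all lower. The 8 T cell markers, with Cd4 most abundant at 13.7 CPM, summed to 56.9, 60.5, 55.7, 50.1 and 85.5 CPM with PBS and 54.0, 44.1, 18.5, 22.5 and 24.3 CPM with DMM, and edgeR called 0 of 8 over all 10 libraries (6 before adjustment, all lower), 2 in the 8 libraries and 4 in the 7 libraries, again lower. The 9 fibroblast and myofibroblast markers, with Col3a1 most abundant at 2575 CPM, summed to 8008, 11263, 6212, 16021 and 10749 CPM with PBS and 13084, 6376, 4279, 9052 and 4883 CPM with DMM. DMM replicates 1, 2 and 4 lay within the range of the PBS libraries. Of these 9, edgeR called 0 over all 10 libraries (0 before adjustment, with 2 of 9 fold changes above 0), 2 lower in the 8 libraries and 5 lower in the 7 libraries. Of 8 endothelial markers 0 were called by edgeR in any of the 4 sets, with 0 at an unadjusted p under 0.05, sums of 848 to 1202 CPM and Plvap most abundant at 254 CPM. Of 7 fat markers Fabp4 alone was tested over all 10 libraries, at a mean of 45.6 CPM, with a fold change of 0.15 (edgeR adjusted p 0.846), and the list summed to 25.3 to 155 CPM. The part of the mix of cells in the levels of the subunit genes was not tested.

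**Figure D3:**
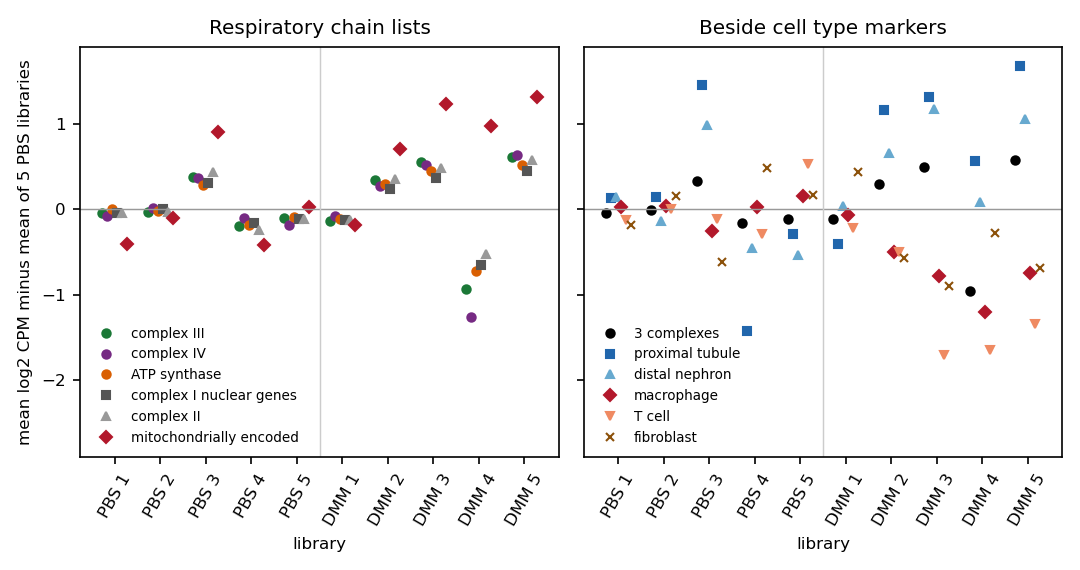
Mean log2 CPM of each list relative to the mean of the 5 PBS libraries, in each library, with respiratory chain lists in the left panel and cell type markers beside the 40 subunit genes in the right panel. In DMM replicate 4 the mitochondrially encoded subunits stand at 0.97 and the proximal tubule markers at 0.56, while the 3 complexes stand between -1.26 and -0.72.

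Because the levels of the 3 complexes lay close together in most libraries, their promoters were searched for cores of factors known to act on respiratory genes. RefSeq promoters of build GRCm38.p6, from 250 bases before to 50 after a start, were matched for 33 of 44 symbols, which gave 36 promoters. The symbols without a match were Atp5a1, Atp5mpl, Cox4i1, Cox4i2, Cox6a2, Cox6c, Cox8c, Cyc1, Uqcrb, Uqcrc2 and Uqcrq. The letters searched on both strands were GCGCANGCG for NRF1, CCGGAAG for ETS factors such as GABP, and AANATGGC for YY1, and matches on opposite strands can overlap. An NRF1 match was found in 10 of 36 promoters (27.8%, against 6.2% of 32851 promoters in the table), an ETS match in 10 (27.8% against 8.9%) and a YY1 match in 5 (13.9% against 6.1%). By complex, an NRF1 match was in 2 of 5 promoters of complex III, 1 of 13 of complex IV (7.7%) and 7 of 18 of ATP synthase. In the same order an ETS match was in 2, 3 and 5, and a YY1 match in 0, 1 and 4. At least 1 match of any kind was in 3 of 5 promoters of complex III, 4 of 13 of complex IV and 12 of 18 of ATP synthase, against 18.6% of all promoters. The 13 of complex IV include the tissue forms Cox6b2, Cox7a1, Cox7b2 and Cox8b, each with 0 matches. The 18 of ATP synthase come from 15 genes, so the shares are not alike in makeup between complexes. A match describes letters in a window and shows neither a bound site nor a cause. In each complex a promoter with the most matches is shown, with matches in capitals: Uqcrc1 at chr9:108936398-108936697 on the plus strand, Cox6a1 at chr5:115348909-115349208 on the minus strand and Atp5l at chr9:44920693-44920992 on the minus strand. Uqcrc1 holds 3 NRF1 matches, Cox6a1 holds 3 NRF1 and 1 ETS matches, and Atp5l holds 1 NRF1 and 2 ETS matches. Atp5k also holds 3 matches (2 NRF1 and 1 ETS) and is not shown, because Atp5l had the smaller p in the 7 libraries, and a palindromic NRF1 match counts on both strands.
Uqcrc1: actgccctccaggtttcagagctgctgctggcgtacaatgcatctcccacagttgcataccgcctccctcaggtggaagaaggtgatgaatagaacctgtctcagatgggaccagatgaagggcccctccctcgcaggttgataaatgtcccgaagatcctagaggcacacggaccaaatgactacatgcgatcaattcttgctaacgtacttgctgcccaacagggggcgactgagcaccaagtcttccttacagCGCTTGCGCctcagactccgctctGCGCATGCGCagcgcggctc
Cox6a1: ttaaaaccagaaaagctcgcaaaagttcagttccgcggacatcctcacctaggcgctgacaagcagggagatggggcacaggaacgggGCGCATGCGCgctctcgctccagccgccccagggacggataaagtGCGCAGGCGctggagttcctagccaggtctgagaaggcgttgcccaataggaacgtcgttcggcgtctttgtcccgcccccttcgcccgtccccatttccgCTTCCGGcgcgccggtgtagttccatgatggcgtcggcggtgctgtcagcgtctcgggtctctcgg
Atp5l: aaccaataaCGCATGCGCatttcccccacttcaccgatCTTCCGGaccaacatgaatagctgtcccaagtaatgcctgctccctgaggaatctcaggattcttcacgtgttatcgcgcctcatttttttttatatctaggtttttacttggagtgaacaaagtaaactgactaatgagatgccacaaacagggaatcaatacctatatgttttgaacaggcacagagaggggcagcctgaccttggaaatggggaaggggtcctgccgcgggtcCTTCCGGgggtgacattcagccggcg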

How the data were processed

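The authors deposited, for 10 kidneys, a read count and an FPKM value of each gene in each library, a gene length in base pairs, and a signal for each group, the mean of scaled counts, used here only to see which libraries it includes. The submitters' processing notes name HISAT2 2.0.5 for alignment; the counting tool and its use of strand are not given in the sources used here. The authors' own fold changes and p-values were not used, and 0 per-sample columns were left out. Counts (15722527 to 19475833 a library) were tested in R 4.3.3 with edgeR 4.0.16 (filterByExpr, TMM, quasi-likelihood F test, Benjamini-Hochberg over all tested genes, no covariates) and, as an alternative, DESeq2 1.42.0; Python 3.11.15, pandas 2.3.3 and NumPy 2.4.6 made the summaries. A prior count of 2 was used for log2 CPM. The code was tested on simulated data. Intervals and limits for a count of 0 (3 reads) cover counting error only, and molecular identifiers are not described. Main transcripts, their length and GC content came from GENCODE release 21 of the mouse, in which 43 of the 45 genes have the same coordinates. Genes were named by rule: in each complex the 3 of highest mean FPKM, those of largest and smallest fold change over 10 and over 8 libraries, those called or at an unadjusted p under 0.05, the isoform pairs, the mitochondrially encoded subunits, and the gene of smallest p in each pathway list; Uqcrh and other genes named in counts came after. Members and lists were chosen with earlier results of these data known. Alternatives were other scalings, filters, corrections for length and GC content, the replicate block, and leaving out libraries.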

Additional observations from a re-analysis of the deposited data

Results flagged for a closer look

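In 68 groups of 5 values, 10 had a lowest or highest library whose gap to its nearest neighbour was large for the range of the group, where chance gives about 1 in 20 groups. Of these, 3 were low values in DMM replicate 4: Uqcr11 at 5.56 CPM, Cox6a1 at 46.7 CPM and Cox8a at 18.5 CPM. High values in PBS replicate 3 were the level of complex III at 0.38, Uqcr10 at 58.8 CPM, Cox8a at 196.5 CPM, mt-Co1 at 14724 CPM and mt-Atp6 at 130.4 CPM. Low values in DMM replicate 1 were mt-Cytb at 3600 CPM and mt-Co1 at 9396 CPM. Genes of a complex rise and fall together, so these are not independent of each other, and their cause was not tested.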

How the results depend on the processing

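Over all 10 libraries edgeR called 0 of the 40 subunit genes and 0 genes in all, with 1 subunit gene at an unadjusted p under 0.05. The count of subunit genes called was also 0 with DESeq2, which called 50 genes in all. It was 0 with RLE size factors, with library size alone, with other filters, and with corrections for gene length. Under each of these edgeR settings 0 genes were called in all. At an unadjusted p under 0.05 there were 7 of the 40 with the gene length correction and 8 with one for GC and transcript length. There were 13 with the latter and the replicate block. The shares of all genes higher were 7.69%, 9.41% and 9.01%, against 4.4% without. The gene length correction moved the medians from 0.20 to 0.28 for complex III, 0.13 to 0.20 for complex IV and 0.12 to 0.24 for ATP synthase. With the correction for GC and transcript length they were 0.25, 0.15 and 0.20. Leaving out each replicate in turn gave 0 to 0 calls (without DMM replicate 1, 486 genes in all and mt-Co3 were called), and medians of 0.10 to 0.34 for complex III, -0.02 to 0.34 for complex IV and 0.05 to 0.28 for ATP synthase. The count was 16 in the 7 libraries, where each library left out had lowered DMM relative to PBS, 1 with DESeq2 in the 8 libraries, and 2 (Uqcrc1 and Uqcrfs1) in the 8 libraries once each library was corrected for transcript length and GC, beside 783 genes higher among 16536 (4.74%). Every correction for GC and DESeq2 in the 8 libraries were chosen after seeing the data; the cause was not tested. The isoform difference of Cox7a1 over Cox7a2 was 0.01 in the 8 libraries, and leaving out each replicate gave -0.39 to 0.36, and -0.28 to 0.67 for Cox4i2 over Cox4i1. With the replicate number as a block 0 genes were called, and the medians were 0.16, 0.00 and 0.07. Same-numbered libraries correlated at -0.223 to 0.341 in their deviations from the group means. With 5 libraries a group, these values neither show nor exclude that the numbers pair the mice. For the named genes, 642 of the values under alternatives kept their direction and side of the threshold or stayed within the spread, 41 passed the threshold only under the alternative, and 41 changed sign or moved beyond the spread. Cox4i2 and Cox7a1 rest on few reads.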
